A study of Mus musculus with 16 samples.

Results

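The genes described here are 10 enzymes that make fatty acids and then lengthen or desaturate them: *Acly*, *Acss2*, *Acaca*, *Fasn*, *Elovl5*, *Elovl6*, *Scd1*, *Scd2*, *Fads1* and *Fads2*. They were read by gene symbol from a table of 55414 mouse genes, each symbol occurred there once, and all 10 were among the 15693 genes with enough counts to be tested. The list was chosen by pathway after the level of *Elovl6* was known to be lower in *Eng*-deleted than in control cells of these libraries, so the values that chose it are differences between KO and Ctrl cells. Those differences are therefore given as a description, with no p-value. Calls made on them are counted once beside their background and support nothing, and the tests reported are those of the BMP9 ligands.

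The cells were mouse lung endothelial cells (MLECs) from 4 independent isolations, sequenced as 16 stranded poly(A) RNA libraries. All came from Rosa26-CreERT2;*Eng* fl/fl mice that also carried the Immorto transgene, a conditional large T antigen that keeps primary cells dividing, so every group shares these alleles and each isolation is 1 cell line. From each isolation, Ctrl cells received vehicle and KO cells received 4-OH-tamoxifen, which activates the ubiquitously expressed Cre and deletes *Eng*, the gene of the BMP9 co-receptor endoglin. After overnight serum starvation, Ctrl cells received PBS or BMP9 bound to monomeric soluble endoglin (sENG(M):BMP9), and KO cells received PBS or BMP9 bound to its prodomain (pro:BMP9), for 90 min, both ligands at 0.2 ng/ml by their growth factor domain. Each isolation thus gave 1 library to each of 4 groups, named here Ctrl PBS and Ctrl sENG(M):BMP9 for control cells, and KO PBS and KO pro:BMP9 for deleted cells. All cells had been maintained in medium with serum, heparin, interferon-γ (20 U/ml) and the ALK5 (TGF-β type I receptor) inhibitor SB431542 (1 μM). Before the starvation, cells were seeded at a higher temperature in medium that lacked interferon-γ, SB431542 and 4-OH-tamoxifen. Loss of *Eng* cannot be told apart from exposure to 4-OH-tamoxifen in this design, nor, in ligand-treated cells, from the form of the ligand. The age and sex of the mice were not given in the sources used here.

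Cells build fatty acids in the cytosol from acetyl-CoA, which comes from citrate or from acetate. Acetyl-CoA is carboxylated to malonyl-CoA and condensed to palmitate, and enzymes of the endoplasmic reticulum then add further carbons or double bonds. Most genes of this pathway, and those of cholesterol synthesis, are known targets of the SREBP transcription factors, which are released from the endoplasmic reticulum when membrane sterol is low and which INSIG proteins hold back. In endothelial cells the pathway supplies membrane lipid and palmitate for protein palmitoylation.

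The libraries held 14869115 to 17242117 counts each. *Eng* checked the labels. Its level, in TMM-normalised counts scaled to the library size (CPM), was 375.2 to 593.7 in Ctrl PBS and 40.1 to 59.98 in KO PBS, and within an isolation 8.51% to 14.5% of the Ctrl level was left in PBS and 16.7% to 23.3% with ligand. All 8 endothelial markers exceeded 1 CPM in every library (*Pecam1*, *Cdh5*, *Kdr*, *Tie1*, *Tek*, *Erg*, *Emcn* and *Icam2*). Of 5 adipocyte markers, a cell type rich in these enzymes, *Adipoq*, *Lep*, *Plin1* and *Cidec* had at most 10 counts in a library and *Plin4* alone exceeded 1 CPM throughout. Of 6 alveolar epithelial markers *Sftpc* was at 0 in all libraries and *Abca3* alone exceeded 1 CPM throughout, and of 5 leukocyte markers *Cd68* alone did. Fibroblast and mural markers were present: the sum over 7 of them ranged from 97.4 to 803.3 CPM.

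Upstream sequences are shown for the genes in which short motifs of this pathway were found. A window of 300 bases before the start site of each gene's canonical transcript was read from GRCm39 with the GENCODE annotation and searched on both strands. The motif TCACNCCAC, a known SREBP-binding sequence, occurred in 271 of 21627 such windows (1.25%) and in those of *Acss2*, *Acaca* and *Fasn* among the 10 genes. Its matches are given as 30 bases in the direction of transcription with the motif in capitals: *Acss2* at chr2:155359619-155359648 and chr2:155359672-155359701 (plus strand), *Acaca* at chr11:84063840-84063869 (plus strand) and *Fasn* at chr11:120715062-120715091 (minus strand).
*Acss2* segment upstream: cctaacttggTCACTCCACagccttgcctc
*Acss2* segment nearer the start site: ctacaccccaTCACTCCACgggcccgcctc
*Acaca* segment: acaggcacacTCACACCACaccctgggtgc
*Fasn* segment: cgcgcgggcaTCACCCCACcggcggcggcg
The *Acss2* and *Fasn* windows lie wholly within exons of longer transcripts of the same genes. The *Acaca* window lies inside the gene, whose deposited start is at 84020498.

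CCAAT, the letters bound by NF-Y, a frequent partner of SREBP, occurred in 8754 of the 21627 windows (40.5%) and in 4 of the 10, those of *Fasn*, *Elovl6*, *Scd1* and *Fads2*. The last 3, an elongase and 2 desaturases, are printed whole, a choice made with their low KO levels relative to Ctrl known. *Scd2*, whose KO level was about as low relative to Ctrl, had 0 matches. Its window lies wholly within exons of other *Scd2* transcripts, so sequence before their start sites was not searched. The 3 printed windows lie at chr3:129325704-129326003 (plus strand), chr19:44396341-44396640 (minus strand) and chr19:10079204-10079503 (minus strand), and capitals mark CCAAT or its complement ATTGG.
*Elovl6* promoter: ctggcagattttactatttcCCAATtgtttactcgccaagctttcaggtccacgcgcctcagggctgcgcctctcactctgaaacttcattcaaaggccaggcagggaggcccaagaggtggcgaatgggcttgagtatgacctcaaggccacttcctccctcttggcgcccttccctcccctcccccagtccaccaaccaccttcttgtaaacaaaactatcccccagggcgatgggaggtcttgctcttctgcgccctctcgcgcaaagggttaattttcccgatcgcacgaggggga
*Scd1* promoter: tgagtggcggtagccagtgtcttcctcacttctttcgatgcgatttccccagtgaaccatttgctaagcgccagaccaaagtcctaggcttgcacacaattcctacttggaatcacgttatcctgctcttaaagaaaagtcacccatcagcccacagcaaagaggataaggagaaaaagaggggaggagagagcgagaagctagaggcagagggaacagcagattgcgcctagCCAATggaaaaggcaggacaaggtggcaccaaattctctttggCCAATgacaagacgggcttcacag
*Fads2* promoter: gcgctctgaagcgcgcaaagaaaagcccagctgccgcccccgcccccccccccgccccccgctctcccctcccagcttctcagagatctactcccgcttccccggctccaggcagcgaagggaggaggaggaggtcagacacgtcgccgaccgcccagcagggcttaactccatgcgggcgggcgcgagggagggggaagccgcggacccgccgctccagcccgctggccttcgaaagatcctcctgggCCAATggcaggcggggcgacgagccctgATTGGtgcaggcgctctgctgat
In *Scd1* the pair of CCAAT matches lay 67 and 24 bases from the start site, and in *Fads2* the matches lay 51 and 23 bases from it. *Elovl6* had a single match, 280 bases away. The GC box GGGCGG was in 4 of the 10 windows and 37.7% of all, the E-box CACGTG in 1 and 6.98%, and GGCGCC, a sequence bound by SMAD1/5, in 3 (*Acss2*, *Elovl6* and *Scd2*) and 10.2%. Over the 13133 windows of tested genes alone, the shares were 51% for the GC box, 8.63% for the E-box and 13.9% for GGCGCC. There they were 39.9% for CCAAT and 1.22% for TCACNCCAC. All motif matches are matches of letters only, and 10 windows are few.

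Levels of different genes were compared as counts per kilobase of the deposited gene length, scaled to the same total in each library. On this scale *Scd2* was highest, with a mean of 330.3 over the 16 libraries, which placed it above 96.9% of the tested genes. *Acly* followed at 154.5, and then *Elovl5* (101.2), *Fasn* (86.9), *Fads1* (84.5), *Fads2* (71.5) and *Scd1* (60.8). *Elovl6* (9.97), *Acaca* (7.91) and *Acss2* (3.4) were far lower, and *Acss2* stood at the 20.8th percentile of the tested genes. Among neighbours in this order, *Acly* exceeded *Elovl5*, *Scd1* exceeded *Elovl6*, and *Acaca* exceeded *Acss2* in 16 of 16 libraries. *Fasn* exceeded *Fads1* in only 8 of 16, so that their order is not set by these data, and the other neighbouring pairs kept their order in 12 to 14. The deposited lengths of *Acaca* (17074 bases) and *Acss2* (10163) are well above those of their canonical transcripts (9513 and 3008), which lowers both on this scale. With canonical lengths, an alternative chosen after seeing the data, *Acaca* (14.2) and *Acss2* (11.5) lay above *Elovl6* (10.5), and *Fads1* (115) above *Fasn* (88.1), so the order within the 3 lowest genes depends on the length used. In CPM, too, *Acaca* (37.9) lay above *Elovl6* (18).

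**Figure D1:**
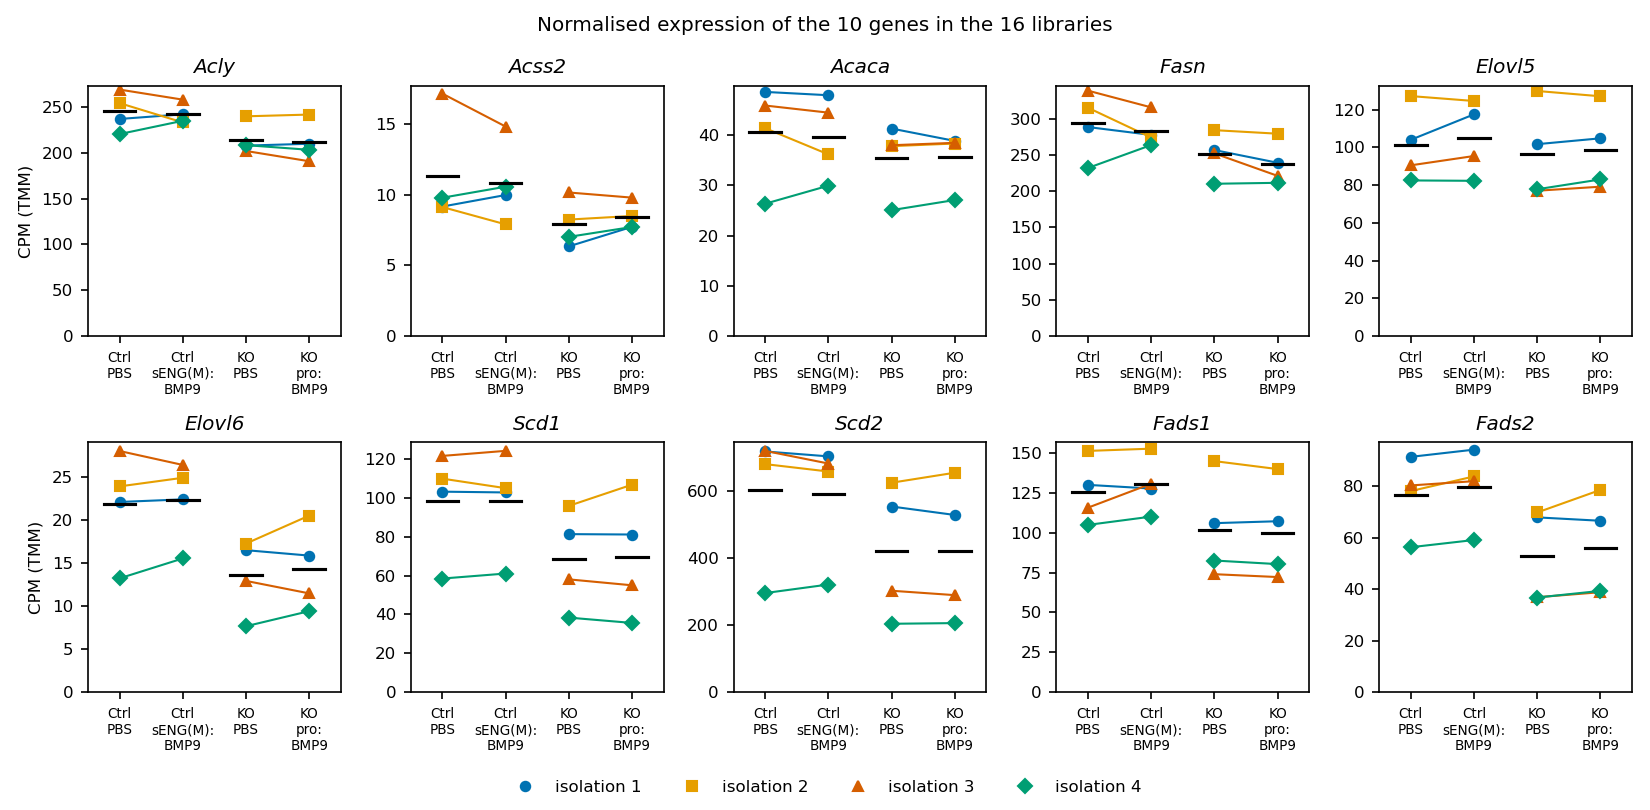
Each panel plots 1 gene in the 16 libraries, in CPM on a linear axis from 0, by group. Points are libraries, symbols and colours mark the isolation, lines join the PBS and ligand libraries of the same cells, and black bars are means over 4 isolations. The lines run nearly flat in every panel, the KO bars lie below the Ctrl bars, and isolation 4 is lowest for most genes.

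*Acly* and *Acss2* provide acetyl-CoA. *Acly*, ATP citrate lyase (chromosome 11, 100367179 to 100418826, minus strand, GRCm39), had a mean of 245.3 ± 21 CPM in Ctrl PBS and 214.7 ± 17.1 in KO PBS (SD, n = 4), with libraries between 190.9 and 269.2 in all. Its isolations were the most alike of the 10 genes. *Acss2*, the cytosolic acetyl-CoA synthetase that uses acetate (chromosome 2, 155359868 to 155427644, plus strand), was at 9.16, 9.13, 17.2 and 9.79 CPM in Ctrl PBS and at 6.35, 8.24, 10.2 and 7.02 in KO PBS, in isolations 1 to 4. With ligand it was at 9.98, 7.9, 14.8 and 10.6 CPM in Ctrl and 7.73, 8.5, 9.8 and 7.72 in KO cells. Isolation 3 gave the highest value of *Acss2* in every group. The exons of *Acss2* share 1511 bases with those of *Gss* on the other strand, which reached 843 counts in a library against 286 for *Acss2* itself, and the strand setting of the counting was not given in the sources used here.

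*Acaca* and *Fasn* carry acetyl-CoA to palmitate. *Acaca*, acetyl-CoA carboxylase 1 (chromosome 11, 84020498 to 84292477, plus strand), had a mean of 40.6 ± 9.94 CPM in Ctrl PBS and 35.5 ± 7.17 in KO PBS (SD, n = 4). Isolation 4, at 25.1 to 29.9 CPM in its 4 libraries, lay below every library of the other isolations, which were at 36.2 to 48.6. *Fasn*, fatty acid synthase (chromosome 11, 120696672 to 120715373, minus strand), had means of 293.9 ± 46 CPM in Ctrl PBS and 251.1 ± 30.6 in KO PBS. Its 16 values ran from 210.4 to 339.1, and the Ctrl and KO ranges overlapped.

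*Elovl5* and *Elovl6* are elongases of the endoplasmic reticulum: ELOVL6 lengthens saturated and monounsaturated chains of palmitate length, ELOVL5 polyunsaturated ones. *Elovl6* (chromosome 3, 129326004 to 129432144, plus strand) was at 22.1, 23.9, 28 and 13.2 CPM in Ctrl PBS and at 16.5, 17.3, 12.9 and 7.67 in KO PBS, in isolations 1 to 4. With ligand its levels were 22.4, 24.9, 26.4 and 15.5 CPM in Ctrl cells and 15.9, 20.5, 11.5 and 9.42 in KO cells. Each KO library was below the Ctrl library of its own isolation, while the groups overlapped because isolation 4 of the Ctrl cells was as low as KO libraries of other isolations. *Elovl5* (chromosome 9, 77824646 to 77891801, plus strand) ranged from 77 to 129.9 CPM and differed mainly between isolations: isolation 2 stayed at 124.6 to 129.9 in all 4 groups and isolation 4 at 77.8 to 83.

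*Scd1* and *Scd2* encode Δ9 desaturases, which make oleate and palmitoleate from saturated chains. They lie close together on chromosome 19 (*Scd2* 44282113 to 44295303, plus strand, and *Scd1* 44382894 to 44396318, minus strand). *Scd2* was at 717.2, 679.5, 718.9 and 295.4 CPM in Ctrl PBS and at 553.2, 624.1, 302.3 and 203.9 in KO PBS. With ligand it was at 702.6, 657.5, 681.3 and 320.8 CPM in Ctrl and 528, 653.9, 289.2 and 205.9 in KO cells. In isolation 3 the KO level was under that of every other isolation except the fourth, whereas in isolation 2 KO and Ctrl cells were close. *Scd1* was at 103.2, 109.9, 121.6 and 58.5 CPM in Ctrl PBS and at 81.4, 95.9, 58.1 and 38.4 in KO PBS. With ligand *Scd1* was at 102.8, 105, 124.2 and 61.1 CPM in Ctrl and 81.2, 106.8, 55 and 35.7 in KO cells. As for *Scd2*, isolation 4 was lowest in every group and isolation 3 was the next lowest in KO cells. Of the 50-base stretches of the canonical transcripts, 2.68% of those of *Scd2* also occur in *Scd1*, and 3.36% of those of *Scd1* occur in *Scd3*. The paralogues *Scd3* and *Scd4* had at most 5 counts in a library.

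*Fads1* and *Fads2* encode the Δ5 and Δ6 desaturases that act on essential polyunsaturated fatty acids, and they too are neighbours on chromosome 19 (*Fads2* 10040129 to 10079110, minus strand, and *Fads1* 10160252 to 10174241, plus strand). *Fads2* was at 91.3, 78, 80.2 and 56.3 CPM in Ctrl PBS and at 67.8, 69.7, 36.9 and 36.7 in KO PBS, in isolations 1 to 4. With ligand it was at 94.1, 83.7, 81.9 and 59.1 CPM in Ctrl and 66.5, 78.5, 38.8 and 39.3 in KO cells. In KO cells isolations 3 and 4 were about equally low. *Fads1* was at 130, 151.3, 115.7 and 104.9 CPM in Ctrl PBS, and at 106, 144.9, 74 and 82.6 in KO PBS. With ligand *Fads1* was at 127.7, 152.7, 130.7 and 110.1 CPM in Ctrl and 107.2, 139.9, 72.2 and 80.3 in KO cells. Isolation 2 was the highest isolation for *Fads1* in every group.

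The first comparison asked whether BMP9 signalling changed the expression of these enzymes within 90 min. None of the 10 genes passed the threshold in either genotype. At the shares called over all tested genes, few calls would be looked for among any 10 genes. The counts of 0 alone therefore do not show that the enzymes were unchanged, and the fold changes and intervals are given beside them. In Ctrl cells the log2 fold changes of sENG(M):BMP9 against PBS lay between -0.05 (*Acss2*) and 0.06 (*Fads1*), with a median of 0.00, and edgeR's quasi-likelihood test called 0 of 10 genes (adjusted p under 0.05), where 9.69% of the tested genes were called. In KO cells those of pro:BMP9 against PBS lay between -0.07 (*Fasn*) and 0.10 (*Acss2*), with a median of 0.01, and again 0 of 10 were called, against 5.59% of the tested genes. The unadjusted p was under 0.05 for 0 of the 10 in both comparisons, against 3072 of the 15693 tested genes in Ctrl and 2215 in KO cells, and DESeq2 also called 0 in both. The smallest adjusted p-values were 0.651 (*Elovl5* in Ctrl cells) and 0.771 (*Fasn* in KO cells, edgeR's quasi-likelihood test). *Elovl6* differed by 0.04 (SE 0.12, 95% confidence interval -0.22 to 0.31, adjusted p = 0.92) in Ctrl cells and by 0.08 (SE 0.14, interval -0.20 to 0.37, adjusted p = 0.909) in KO cells on the log2 scale. The intervals differed in width between genes. The narrowest was that of *Elovl5*, -0.05 to 0.17 in Ctrl and -0.08 to 0.15 in KO cells, and the widest that of *Scd2*, -0.32 to 0.30 and -0.32 to 0.31. *Fads2* was higher with sENG(M):BMP9 in all 4 isolations, by 0.03 to 0.10, as 13.1% of the tested genes were. *Eng* itself rose with sENG(M):BMP9 in Ctrl cells by 0.49 (SE 0.09, adjusted p = 0.00163) in the same test. With pro:BMP9 in KO cells it rose by 1.23 (SE 0.11, adjusted p = 2.8e-07, edgeR's quasi-likelihood test).

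The difference between both ligand responses was tested directly. For the 10 genes it lay between -0.09 (*Fads1*) and 0.15 (*Acss2*), with a median of 0.00 on the log2 scale, and 0 of 10 genes were called, as were 0% of the tested genes. None of the 10 had an unadjusted p under 0.05, which 565 of the 15693 tested genes had, and DESeq2 likewise called 0 of the 10 and 0 genes in all. The log2 change of *Acss2* with ligand was higher in KO than in Ctrl cells in all 4 isolations, by 0.03 to 0.25, as it was for 6.72% of the tested genes, but its interval ran from -0.21 to 0.51 (adjusted p = 0.9996, edgeR's quasi-likelihood test).

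**Figure D2:**
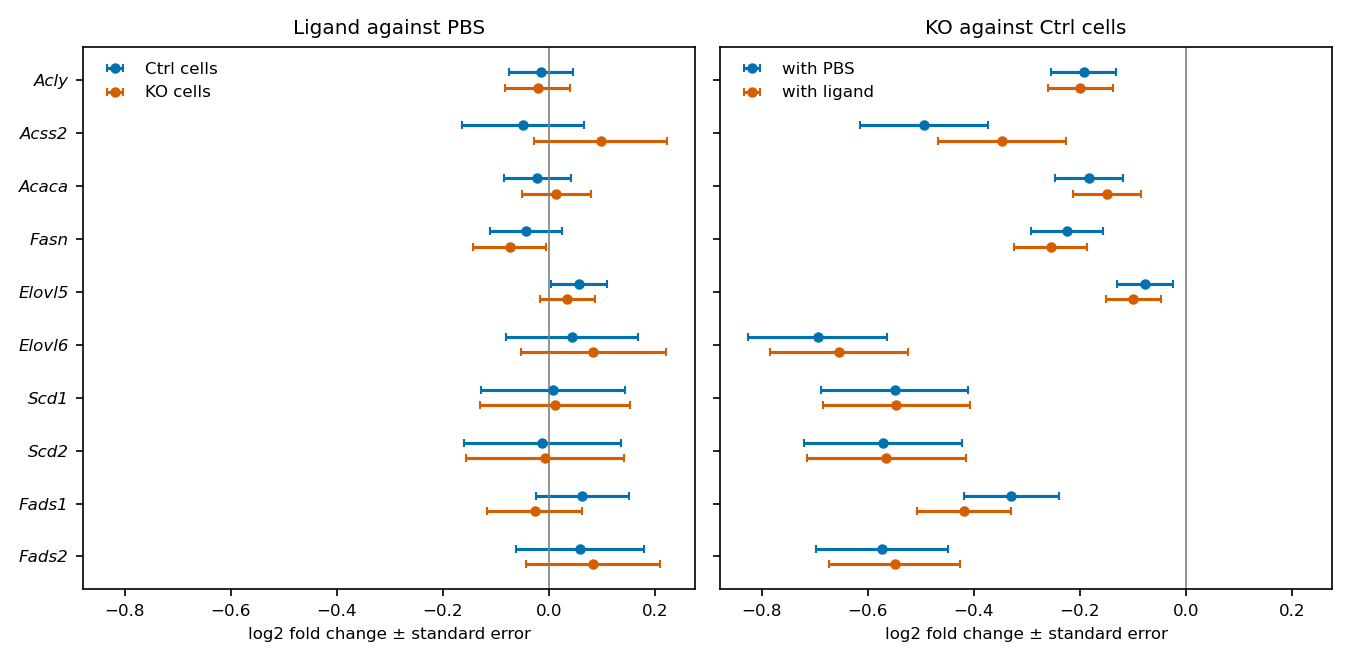
Points are log2 fold changes of the 10 genes from the fit to all 16 libraries and bars are standard errors, on the left for ligand against PBS and on the right for KO against Ctrl cells. The ligand points lie between -0.07 and 0.10, and the KO points are all below 0, from -0.70 for *Elovl6* in PBS to -0.08 for *Elovl5* in PBS.

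The second comparison asked how the enzymes differed between KO and Ctrl cells of the same isolation, and is a description because such differences were known when the list was made. In PBS all 10 genes had a lower mean level in KO cells, with a median log2 fold change of -0.41 against 0.00 for all tested genes. An elongase and 3 desaturases differed most: *Elovl6* by -0.70 (SE 0.13), which left 61.8% of the Ctrl level, *Fads2* by -0.57 (SE 0.12), *Scd2* by -0.57 (SE 0.15) and *Scd1* by -0.55 (SE 0.14). *Acss2* (-0.49, SE 0.12) and *Fads1* (-0.33, SE 0.09) came next. The central synthesis enzymes differed less, *Fasn* by -0.22 (SE 0.07), *Acly* by -0.19 (SE 0.06) and *Acaca* by -0.18 (SE 0.06), and *Elovl5* least, by -0.08 (SE 0.05). For 9 of the 10 genes the KO library was the lower in all 4 isolations, as for 7.86% of the tested genes, *Elovl5* being the exception. At an adjusted p under 0.05 edgeR called 0 of the 10 lower, where 0.0191% of the tested genes were called lower, and nothing is read from this count, since the contrast chose the list.

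With ligand, in other libraries of the same cells, all 10 genes again had a lower mean level in KO cells, with a median of -0.38. The largest differences were those of *Elovl6* (-0.66, SE 0.13), *Scd2* (-0.57, SE 0.15), *Fads2* (-0.55, SE 0.12) and *Scd1* (-0.55, SE 0.14). *Fads1* differed by -0.42 (SE 0.09), *Acss2* by -0.35 (SE 0.12), *Fasn* by -0.26 (SE 0.07), *Acly* by -0.20 (SE 0.06), *Acaca* by -0.15 (SE 0.06) and *Elovl5* by -0.10 (SE 0.05). In each of the 4 isolations the KO library was the lower for *Elovl6*, *Scd2*, *Fads1* and *Fads2*, as for 7.35% of the tested genes. Here edgeR called 1 of the 10 lower, *Elovl6*, where 0.166% of the tested genes were called lower. That call restates the values that chose the list and is no evidence of its own. The direction was negative for all 10 genes in both comparisons under all 11 alternatives.

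The size of the difference was not even between isolations. In PBS isolation 3 had the largest difference for 10 of 10 genes, with a median of -0.70, against -0.41 in isolation 4, -0.32 in isolation 1 and -0.14 in isolation 2. In isolation 3 the difference was -1.25 for *Scd2*, -1.12 for *Fads2*, -1.11 for *Elovl6* and -1.06 for *Scd1*, on the log2 scale. With ligand the medians were -0.72 in isolation 3, -0.45 in isolation 4, -0.32 in isolation 1 and 0.03 in isolation 2, where 6 of the 10 genes were slightly higher in KO cells. *Elovl6* was lower in KO cells of isolation 2 too, by 0.47 in PBS and 0.28 with ligand. Over the 10575 genes with a mean of at least 100 counts, the spread of the KO minus Ctrl differences in PBS was alike in all isolations (SD 0.189, 0.168, 0.187 and 0.163 for isolations 1 to 4), so isolation 3 did not stand apart over genes in general. The share of *Eng* counts left in KO PBS was 9.27%, 8.51%, 14.5% and 13.7% in isolations 1 to 4. These are RNA counts and do not measure endoglin protein. Whether the differences of the enzymes are related to the *Eng* left was not tested. Without isolation 3 the median in PBS was -0.29, *Scd2* was at -0.34, *Acly* at -0.12 and *Elovl5* at -0.03, and with ligand *Scd1* was at -0.34, *Scd2* at -0.35, *Fads1* at -0.28, *Acly* at -0.12 and *Elovl5* at -0.04. *Acaca* with ligand was at -0.10 without isolation 1 and at -0.23 without isolation 2.

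**Figure D3:**
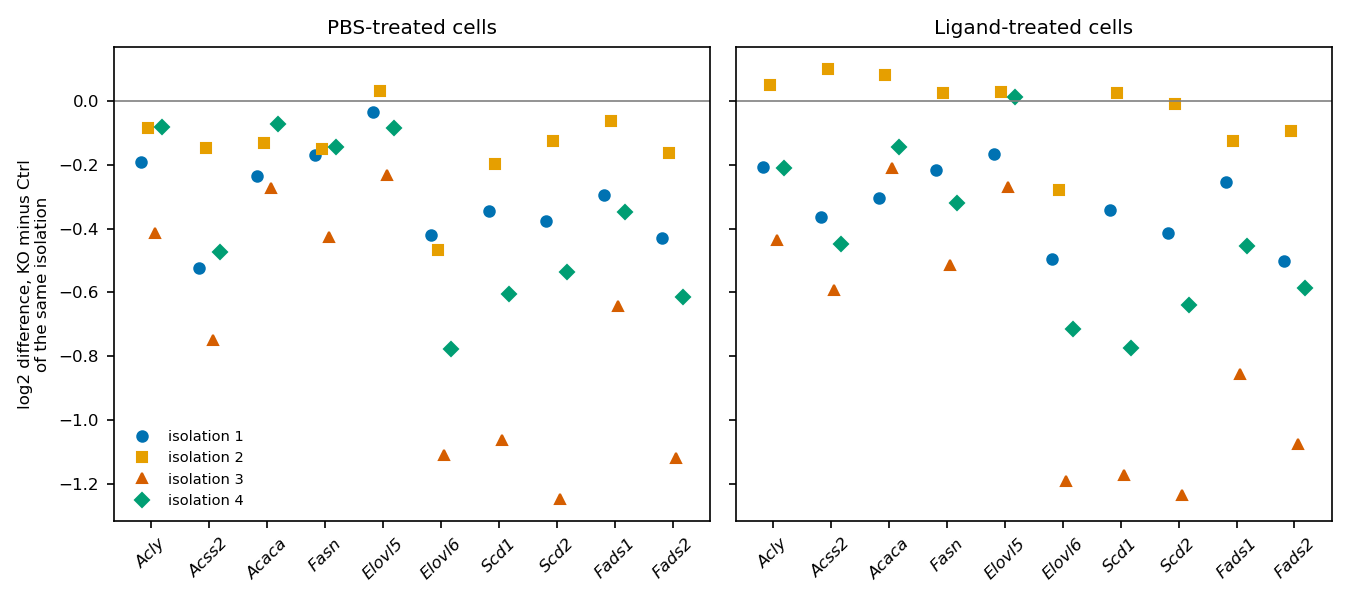
Each point is the log2 difference in CPM (prior count 2) between the KO and Ctrl library of 1 isolation, for PBS-treated cells on the left and ligand-treated cells on the right, with symbols for the isolation. Isolation 3 (triangles) is lowest for 10 of 10 genes in PBS, and isolation 2 (squares) is highest for 10 of 10 genes with ligand, where 6 lie above 0.

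The summed fibroblast and mural markers were also lower in KO cells in each isolation, by log2 differences of -0.40, -0.04, -0.17 and -0.54 in PBS and -0.34, -0.20, -0.20 and -0.62 with ligand in isolations 1 to 4. *Col1a1* and *Col1a2* had the highest means of the 7 in Ctrl PBS (239.3 and 121.5 CPM) and weigh most in the sum. *Rgs5* alone had higher means in KO cells (15.9 against 15.5 CPM in PBS, 17.4 against 15.7 with ligand). The largest difference of these markers was in isolation 4, that of the enzymes in isolation 3. In PBS the smallest difference of both was in isolation 2. The 5 adipocyte markers, nearly all of whose counts were those of *Plin4*, summed to 2.5 to 28.2 CPM in a library. Their sum differed by 0.60, -0.07, -0.58 and -0.20 in PBS and by 1.25, 0.20, -0.25 and -0.43 with ligand in isolations 1 to 4, so that in PBS its lowest difference, like that of the enzymes, was in isolation 3, while in isolation 1 the sum was higher in KO cells. In isolation 2, where the 7 fibroblast and mural markers summed to only 97.4 to 112.2 CPM, the median difference of the 10 enzymes was -0.14 in PBS. With ligand it was 0.03 there, and 6 of the 10 were above 0. *Elovl6* was lower in KO cells of isolation 2, by 0.47 in PBS and 0.28 with ligand. The endothelial marker sum differed by at most 0.10 in any isolation. The part of cell composition in the differences was not tested, and fewer cells with a gene cannot be told apart from less RNA per cell in such libraries.

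Isolation was a large source of variation. It accounted for 17.6% (*Acly*) to 91.5% (*Elovl5*) of the variation of the 10 genes in log2 CPM, and group for 3.41% (*Elovl5*) to 49.3% (*Acly*), against medians of 63.8% and 8.79% over all tested genes. Group took 42.2% for *Elovl6* and 38.3% for *Fads2*. The difference between KO and Ctrl cells, which chose the list, enters the group share, so these shares in part restate it. Isolation 4 had the lowest mean for 9 of 10 genes, and the ratio of the highest to the lowest isolation mean was 2.55 for *Scd2*, 2.16 for *Scd1* and 1.89 for *Elovl6*.

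Once each isolation's mean was removed, the 10 genes varied together over the 16 libraries. Among their 45 pairs Pearson's r ran from 0.67 (*Acaca* with *Elovl5*) to 0.988 (*Scd1* with *Scd2*), with a median of 0.906. Among the genes most like *Elovl6*, of 10995 with a mean of at least 5 CPM, were *Fads2* (r = 0.97), *Nsdhl* (0.961), *Sqle* (0.958) and *Cyp51* (0.957), the last 3 being enzymes of cholesterol synthesis. *Scd2* and *Scd1* ranked 6 and 7, *Fads1* 12, *Fasn* 22, *Acss2* 23, *Acly* 25, *Acaca* 72 and *Elovl5* 133. The difference between KO and Ctrl cells, which chose the list, remains in these values and enters every r, so the correlations and ranks in part restate it. They describe 16 libraries that share isolations, groups and normalisation.

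Other genes around the pathway were read from 7 lists. In the KO comparison in PBS, 15 of 15 tested genes of sterol metabolism had negative log2 fold changes, with a median of -0.62 (-0.61 with ligand), as 7905 of the 15693 tested genes did. Of the regulators, *Insig1*, which retains SREBP in the endoplasmic reticulum and is itself a sterol-responsive gene, differed by -0.65 (SE 0.18). The remaining lists had medians near 0 in PBS: -0.03 for 10 other genes of synthesis, -0.06 for 9 other genes of elongation, -0.07 for 5 other genes of desaturation, -0.03 for 15 regulators, 0.01 for 15 genes of fatty acid activation and storage, and 0.01 for 26 genes of uptake and oxidation. The SREBP genes themselves, named after their values were seen, were at -0.07 (SE 0.05) for *Srebf1* and -0.36 (SE 0.11) for *Srebf2*. These lists too were made with earlier results known, and their genotype differences are descriptions.

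**Figure D4:**
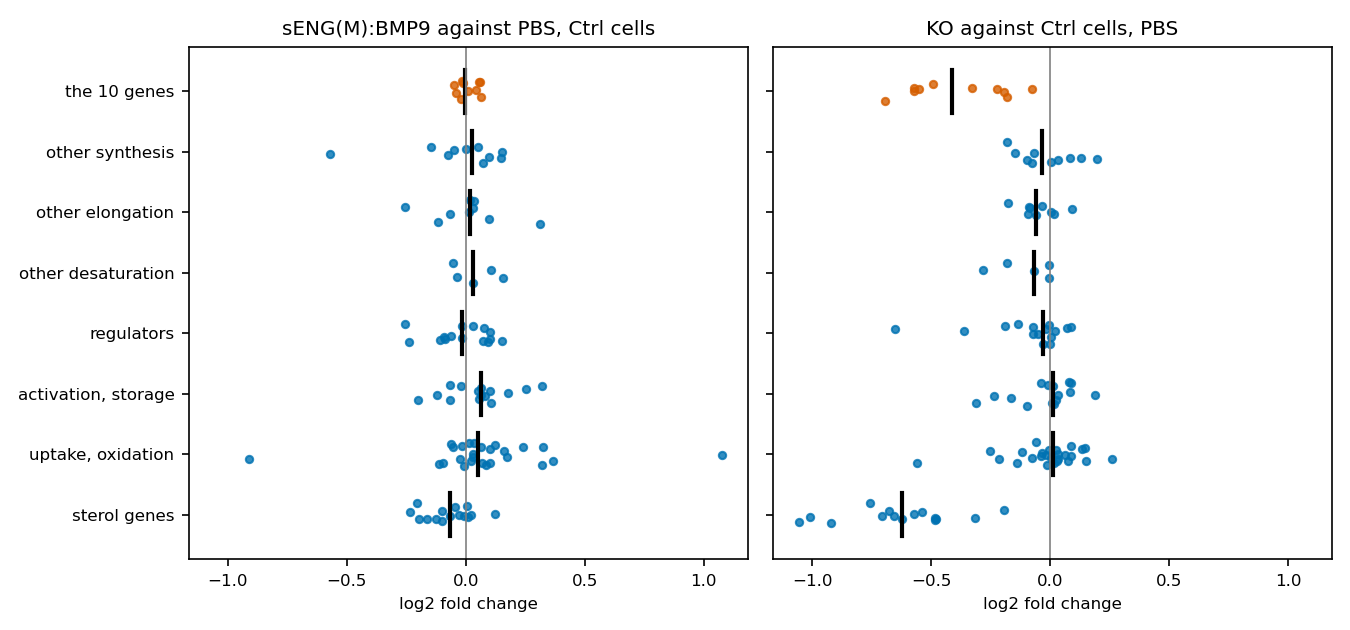
Points are log2 fold changes of the tested genes of each list and black bars are list medians, for sENG(M):BMP9 against PBS in Ctrl cells on the left and KO against Ctrl cells in PBS on the right. The 10 genes (orange, median -0.41) and the sterol genes (median -0.62) lie to the left of 0 on the right, and all medians on the left lie within 0.07 of 0.

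Several genes of fatty acid use passed the test in the ligand comparisons. Of 26 tested genes of uptake and oxidation, 5 rose and 1 fell in Ctrl cells, where 5.86% of all tested genes rose and 3.83% fell. In KO cells 3 rose and 1 fell, where 3.68% of all tested genes rose and 1.92% fell. *Pdk4*, a kinase that limits the entry of pyruvate into the citric acid cycle, rose by 1.08 (SE 0.08, adjusted p = 4.33e-08) in Ctrl and 1.10 (SE 0.09, adjusted p = 6.63e-08) in KO cells. Its level lay between 26.6 and 36.8 CPM in Ctrl PBS and between 47.2 and 80.4 with sENG(M):BMP9. *Angptl4*, a secreted inhibitor of lipoprotein lipase, fell by 0.91 (adjusted p = 4.46e-06) and by 0.90 (adjusted p = 7.29e-06). *Cpt1a*, which admits long-chain fatty acids to mitochondria, rose by 0.36 (adjusted p = 4.34e-04) and 0.30 (adjusted p = 0.00492). The call of *Cpt1a* in KO cells was lost without isolation 2 (adjusted p = 0.0613).

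Closer to synthesis, *Mid1ip1*, which promotes the polymerisation of acetyl-CoA carboxylase, was the 1 called gene of its list of 10. It fell by 0.57 (SE 0.08, adjusted p = 2.76e-05) in Ctrl and by 0.39 (SE 0.08, adjusted p = 0.00229) in KO cells, and in all 4 isolations of each. That list, the 5 other genes of desaturation and the 15 regulators each had at most 1 called gene per ligand comparison. Over all tested genes 9.69% were called in Ctrl and 5.59% in KO cells, so nothing is read from these counts. *Mid1ip1* lay between 58.1 and 87.6 CPM in Ctrl PBS and between 44 and 56.1 with sENG(M):BMP9. *Fads3*, a desaturase of sphingoid bases in the same gene cluster as *Fads1* and *Fads2*, rose in Ctrl cells by 0.15 (SE 0.04, adjusted p = 0.0206), a call that was lost without isolation 1, 2 or 3 (adjusted p = 0.0749, 0.0834 and 0.168). Among 15 regulators *Prkab1*, a subunit of the AMP-activated kinase that phosphorylates acetyl-CoA carboxylase, fell in Ctrl cells by 0.24 (SE 0.05, adjusted p = 0.00309). *Prkaa1*, the catalytic subunit of the same kinase, rose in KO cells by 0.15 (SE 0.04, adjusted p = 0.0214), a call lost under DESeq2 (adjusted p = 0.0629), without the count filter (0.104) and when any 1 isolation was left out (0.07 to 0.276). These adjusted p-values are from edgeR's quasi-likelihood test unless DESeq2 is named. Without isolation as a block, the calls of *Pdk4* in both genotypes and of *Mid1ip1* in Ctrl cells held and those of the other genes, *Angptl4*, *Cpt1a*, *Fads3*, *Prkab1*, *Prkaa1* and *Mid1ip1* in KO cells, did not. None of these genes differed between the responses of KO and Ctrl cells at an adjusted p under 0.05. As 0 of the 15693 tested genes did, this does not show that their responses were alike. No gene of the elongation (9 tested), activation and storage (15 tested) or sterol (15 tested) lists was called in either ligand comparison by edgeR. At an unadjusted p under 0.05, there was 1 elongation gene and 1 gene of activation and storage in Ctrl cells, and 0 sterol genes in either. Over all tested genes, 3072 of 15693 had such a p in Ctrl and 2215 in KO cells.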

How the data were processed

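RNA of 16 MLEC libraries (4 groups, 4 isolations) was analysed from the raw counts of read pairs per gene that the authors deposited for 55414 genes. The submitters' processing notes name GRCm39, HISAT2 2.0.5, featureCounts 1.5.0-p3 and DESeq2 1.26.0, and the annotation release and the strand setting of counting are not given in the sources used here. The quantile normalisation and ComBat step of the study is not in the counts. Library totals were 14869115 to 17242117, and at this depth *Acss2*, the lowest of the 10 genes, had 100 to 286 counts per library.

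Genes were filtered with filterByExpr by group (minimum count 10, minimum total 15), which left 15693. Counts were normalised by TMM and fitted in edgeR 4.0.16 (R 4.3.3) with the quasi-likelihood test on all 16 libraries, with group and isolation as terms. P-values were adjusted by Benjamini-Hochberg over the 15693 genes in each of 5 comparisons, with a threshold of 0.05. Libraries of 1 number come from the same isolation by their labels: over 24 such pairs the correlation of deviations from group means averaged 0.757 (lowest 0.67), against -0.251 over 72 other pairs. No libraries of a group agreed within sampling noise. Single-isolation differences used log2 CPM with a prior count of 2. P-values rest on 4 isolations, and intervals are 95% confidence intervals. The procedure was tested on simulated counts. The deposited gene_length column, in bases, was used for levels between genes.

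The 10 genes and the lists were chosen with earlier results of these data known. Beside the 10 genes and *Eng*, named genes are those of the lists that passed the threshold in a ligand comparison (the 3 with the largest change where more passed), genes among the 5 most correlated with *Elovl6*, and *Insig1*. Some results of this rule are not reported here. Of the listed genes, *Hsd17b8* was not matched by symbol and was not analysed here. Alternatives were a fit without the isolation block, DESeq2 1.42.0, RLE size factors, no count filter, at least 10 counts in every library and the 8 libraries of a comparison alone. Others were leaving out each isolation and the study's steps, rebuilt from its description (quantile normalisation, then ComBat in sva 3.50.0 with isolation as batch, then DESeq2). Canonical transcript lengths for levels between genes were an alternative chosen after seeing the data. Upstream windows and overlaps were read from GRCm39 with a GENCODE annotation, whose release may differ from that of the counting.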

Additional observations from a re-analysis of the deposited data

Results flagged for a closer look

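In groups of 4 libraries, a library was singled out when its gap to the nearest of the others as a share of the group's range exceeded Dixon's 95% critical value. Of 84 combinations of 21 named genes and 4 groups, 7 were singled out, and chance alone would give about 1 in 20. Among the 10 enzymes, *Scd2* in isolation 4 was at 295.4 CPM in Ctrl PBS, where the nearest library was at 679.5, and at 320.8 CPM in Ctrl sENG(M):BMP9, where the nearest was at 657.5. *Acss2* in isolation 3 of Ctrl PBS was at 17.16 CPM, with the next library at 9.79. *Acaca* in isolation 4 of KO pro:BMP9 was at 27.08 CPM, with the nearest at 38.33. *Acly* in isolation 2 of KO PBS was at 240 CPM, with the nearest at 208.5. Outside the 10 enzymes, *Cpt1a* in isolation 4 of Ctrl PBS was at 113.7 CPM, above 71.7 in the nearest library. *Prkab1* in isolation 1 of KO PBS was at 52.98 CPM, below 60.15 in the nearest.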

How the results depend on the processing

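All 10 genes were below 0 in both genotype comparisons under each of the 11 alternatives, and none was called in a ligand comparison under any of the 11 or in the difference of responses under the 10 that can hold it, which leave out the fit to 8 libraries (smallest adjusted p 0.44 in Ctrl cells, 0.257 in KO cells and 0.981 for the difference). The counts of calls between KO and Ctrl cells rest on the values that chose the list and support nothing. The study's steps named below were rebuilt from its description and do not return its published counts. The study reported fewer significant genes between KO and Ctrl cells, both in PBS and with ligand. In PBS it named *Elovl6* alone of the 10 genes as lower. Here, where 0 of the 10 genes were called as lower in KO cells in PBS, DESeq2 with the replicate block called 1. No filter on low counts called 8 and the rebuilt quantile normalisation, ComBat and DESeq2 8. With ligand, where 1 was called, DESeq2 with the replicate block called 3, no filter 7, the study's steps 7, at least 10 counts in every library 0, the 8 libraries alone 0, and leaving out 1 isolation 0 to 3. Without the replicate block 0 were called, and without this pairing the calls in the ligand comparisons over all genes went from 1521 to 167 in Ctrl and from 878 to 91 in KO cells. Among named genes the calls of *Angptl4*, *Cpt1a*, *Fads3* and *Prkab1* in Ctrl cells and of *Angptl4*, *Cpt1a*, *Mid1ip1* and *Prkaa1* in KO cells were then lost. Under the study's steps 2230 genes were called in Ctrl and 1406 in KO cells, and leaving out isolation 2 gave 573 in KO cells. For KO against Ctrl over all genes, the counts of 3 in PBS and 40 with ligand became 204 and 517 without a filter, 176 and 536 under the study's steps, 7 and 138 under DESeq2, 1 and 1 without the block, and 69 and 175 without isolation 4. In PBS 1 gene was called in the 8 libraries alone and 1 without isolation 3, and with ligand 6, 15 and 16 without isolations 1, 2 and 3. In the difference of responses 52 genes were called without a filter and 14 under the study's steps, against 0. The cause of these shifts was not tested. In CPM, without length correction, *Fasn* ranks 2 and *Acly* 3 behind *Scd2*. The 4 isolations and the counts of *Acss2* and *Elovl6*, down to 100 and 130 in a library, limit precision.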
